A study of Mus musculus with 10 samples.

Results

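Chaperone, heat shock and protein folding genes were followed in the cochlea of mice fed GeO2 (germanium dioxide), a compound known to damage the kidney, nerve and muscle when it is taken for long. The genes were taken from the authors' deposited table of significant genes, where a gene entered if its symbol begins with Hsp, Dnaj or Cct and a digit, if it is Cryab, or if its Gene Ontology process column holds the term protein folding; Hspa9 and Hspe1, chaperones of the mitochondrial matrix, were left out. The rule selected 97 probe sets of the 7806 in that table and of the 45037 on the arrays. They stand for 72 genes with 1 symbol, and 1 further probe set carried the symbols of both Ppid and Lamp3. Of the 97 probe sets, 39 qualified by symbol and term together, 56 by the term alone and 2, both of Cryab, by symbol alone.

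Total RNA came from the cochlea of male CBA mice, an inbred strain used in hearing research, all 6 months old. The GeO2 group held 5 samples from mice that had eaten a diet with 0.15% GeO2 for 4 months, and the control group held 5 samples of mice kept on chow without it. A single Affymetrix array was used per sample, and no genetic alteration is given for either group. Whether animals were pooled is not stated, and the design notes count 5 samples in each group but add that no replicates were made. The p-values therefore measure only how far these samples differed among themselves, and that spread may be technical. The number of arrays limits the precision.

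Chaperones bind unfolded or partly folded proteins and release them for folding or for degradation. HSP70 proteins do this in cycles of ATP hydrolysis started by J proteins (the HSP40 family), HSP90 acts on nearly folded clients with the help of cochaperones, and the ring-shaped CCT chaperonin folds actin and tubulin. The transcription factor HSF1 raises the cytosolic set in the heat shock response, and ATF6 and XBP1 raise the set of the endoplasmic reticulum (ER) in the unfolded protein response. In the inner ear, heat shock proteins are known from studies of noise, heat and ototoxic drugs, in which their induction has been linked to the survival of hair cells.

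All 7806 p-values of the authors' deposited table were at most 0.05, and all came within 1e-05 of the p from comparing GeO2 with control by a pooled-variance test on the linear signal. Every gene described here had thus been selected on the same contrast, so that a gene differed between the groups is how it was chosen and not a finding. What follows describes the direction, the size and the spread between arrays. Differences are GeO2 minus control on the scale of log2(signal + 16), and a fold is 2 to the power of the size of that difference. A gene is said to have risen or fallen where limma's Benjamini-Hochberg adjusted p over all 27022 probe sets tested was under 0.05. Each gene is given at its brightest tested probe set of the table. Probe sets in the lowest 40% of mean signal were not tested, which left 92 of the 97 probe sets and 69 of the 72 genes. The untested genes were 4930503B20Rik, A030014E15Rik and Alyref.

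The arrays' median signals were 446.8 to 508.4 units and their trimmed means 1495.6 to 1496.5. Several of the cochlear markers measured differed between the groups. A marker counts as measured where the authors' table names it and it was tested, so the markers counted here were chosen on the same contrast and their counts are a description. All 5 measured markers of strial marginal cells, of 10 listed, fell, with summed signals of 18482 to 24416 units in GeO2 and 36250 to 40391 in control. Of 6 measured markers of the spiral ligament and limbus, of 11 listed, 4 fell and 1 rose, with sums of 81862 to 111632 units in GeO2 and 99264 to 140485 in control. Of 4 measured markers of supporting cells and the tectorial membrane, of 9 listed, 3 rose, with sums of 53227 to 69781 units in GeO2 and 44997 to 49364 in control. The connexin gene Gjb6, in both of those lists, did not pass. It was the brightest marker of each, with means of 41547 units in GeO2 and 36225 in control, so the sums largely follow it. Car3, a fall in the ligament list, is also in the muscle list used below. Of the markers listed for hair cells and for spiral ganglion neurons, 1 each was named in the table and tested, so those cells were hardly covered. Blood cell markers differed too. Of 26 markers listed for erythroid cells, 21 were measured and 20 of them fell, and their summed signal ran from 54936 to 129545 units in GeO2 and from 148849 to 266217 in control. All 24 measured markers of dividing cells fell, with sums of 34738 to 81132 units in GeO2 and 75513 to 144934 in control. The 4 measured markers of macrophages and neutrophils, of 21 listed, rose, with sums of 4088 to 32307 units in GeO2 and 1270.3 to 2584 in control. Lcn2 alone had 11774 ± 10146 units in GeO2 and 795 ± 461 in control (mean signal ± SD, n = 5). The sums of this list were 29678 and 32307 units on GeO2 replicates 3 and 5, and 4088 to 9540 on the other GeO2 arrays. Leaving out any of 9 arrays ended the call of Cd177, another of its markers. In RNA from whole tissue, fewer cells of a type and less RNA per cell cannot be told apart.

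Of the 69 genes, 22 rose and 19 fell, which is 59.4% of the genes. Among all 27022 probe sets tested, 16.3% passed, 8.50% higher and 7.81% lower in GeO2. Among the 7178 tested probe sets of the authors' table, from which the genes came, 59.7% passed, 31.2% higher and 28.5% lower. By probe set, 58 of 92 passed (63.0%), 32 higher (34.8%) and 26 lower (28.3%). The share of chaperone and folding genes that passed was near that of the table as a whole, and nothing about the genes is read from it. The median change in log2 units was 0.26 over the 69 genes, 0.25 over the tested probe sets of the table and −0.02 over all probe sets tested. The values of GeO2 and control did not overlap for 29 of the 69 genes (42.0%), against 43.7% of the table's tested probe sets and 12.2% of all; by probe set it was 41 of 92 (44.6%). Of the 41 genes that passed, 27 passed whichever array was left out, 16 higher and 11 lower. By probe set that was 38 of 92 (41.3%), against 33.3% of the table and 8.97% of all probe sets tested.

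**Figure D1:**
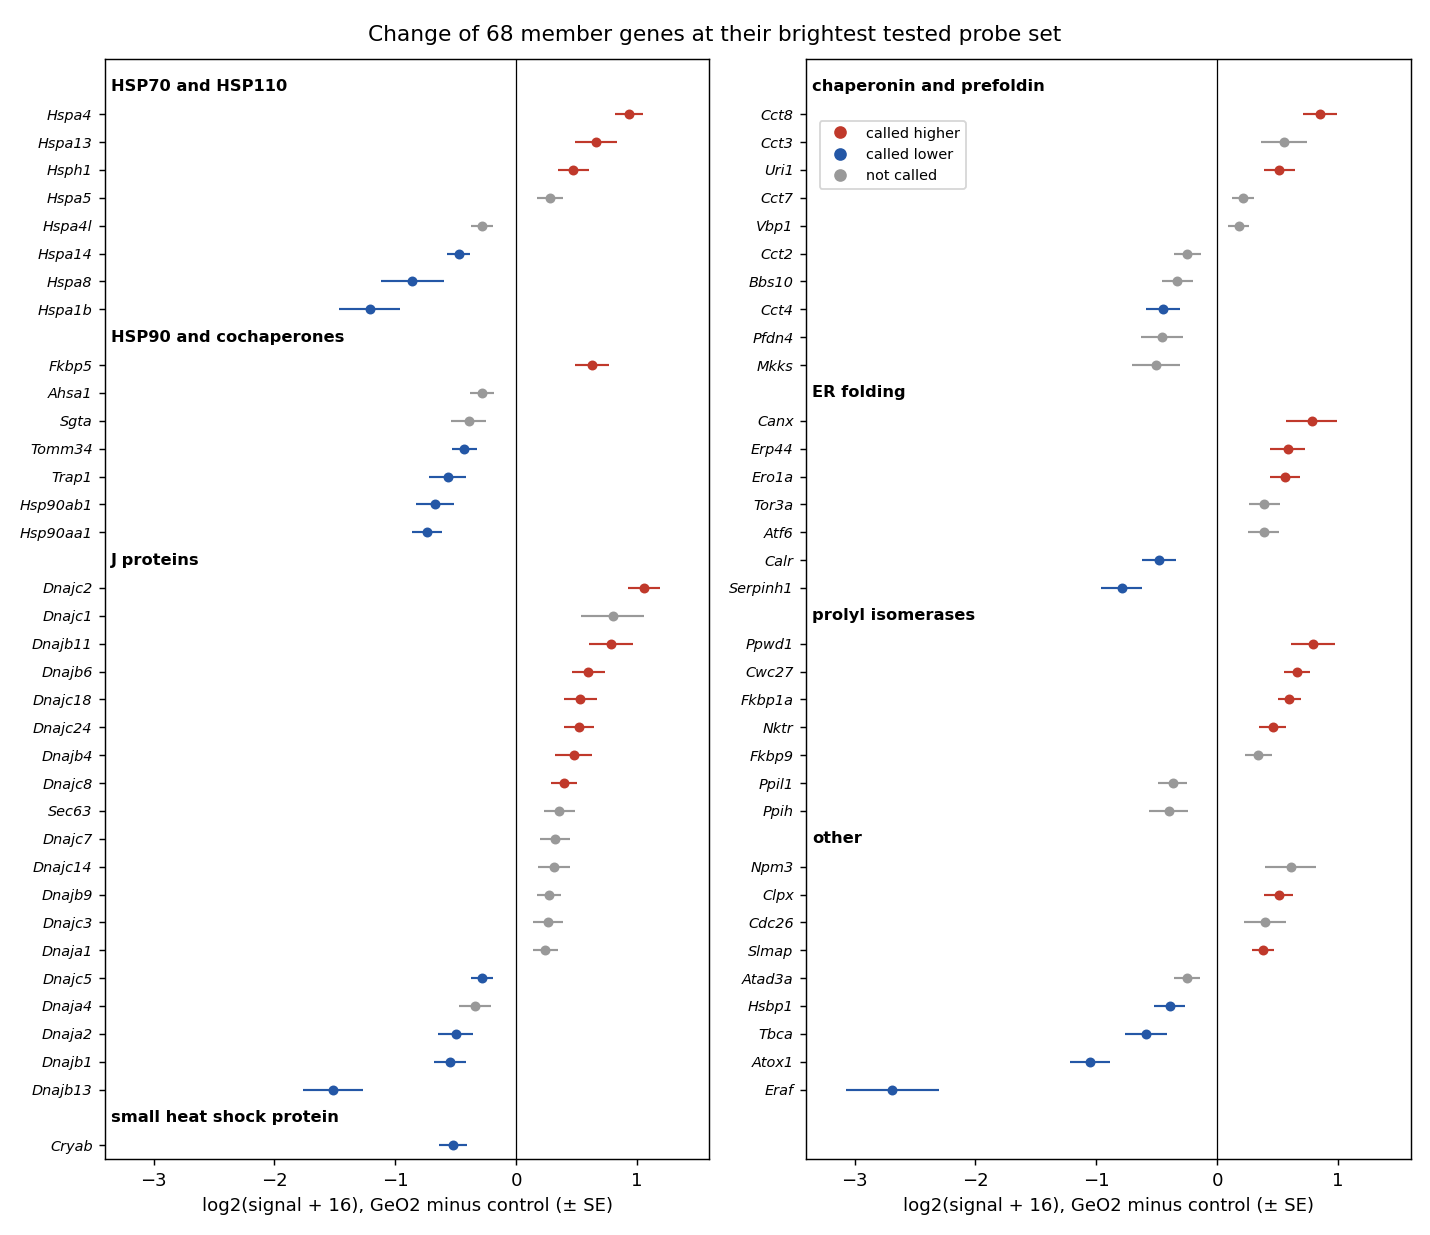
Change of 68 of the 69 tested genes in GeO2 against control on the log2(signal + 16) scale, with its standard error, grouped by role. Points in red rose, points in blue fell and grey points did not pass. Prolyl isomerases hold 4 rises and no fall, and HSP90 with its cochaperones holds 1 rise and 4 falls. Of the tested probe sets of the authors' table, 31.2% rose and 28.5% fell.

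The cytosolic HSP70 of the heat shock response was lower in GeO2. Its HSP110-type partners did not move one way: Hspa4 and Hsph1 were higher, and Hspa4l was lower at its dimmer probe set. Of 8 HSP70 and HSP110 genes measured, 3 rose and 3 fell. Hspa1b encodes the stress-inducible HSP70. Its brightest probe set read 9067, 9599, 11625, 4537 and 11043 units on control arrays 1 to 5 and 5945, 2868, 3561, 3153 and 3925 on GeO2 arrays 1 to 5. The groups overlapped in 1 of 25 pairs of arrays, where GeO2 replicate 1 stood above control replicate 4. Hspa1b fell 2.32-fold, from 9174 ± 2793 in control to 3890.4 ± 1217 in GeO2 (mean signal ± SD, n = 5). Its log2 change was −1.21 (SE 0.25, adjusted p 0.0071). Its other probe sets in the table changed by −1.18 log2 units (SE 0.27) and −1.05 log2 units (SE 0.31). Hspa1a, a near-identical copy of Hspa1b, was not analysed here under its own symbol, and these probe sets may read both genes together. Control replicate 4 was the lowest control array in all 3 probe sets.

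Hspa4 encodes an HSP110-type nucleotide exchange factor, which reloads HSP70 with ATP. It read 4059, 4651, 4236, 4923 and 4762 units on the control arrays and 7275, 8009, 8356, 9380.2 and 10561 on the GeO2 arrays. All GeO2 arrays stood above all control arrays. Hspa4 rose 1.91-fold, a log2 change of 0.93 (SE 0.12, adjusted p 0.000707), the lowest adjusted p of the 69 genes, and its dimmer probe set rose by 0.95 log2 units (SE 0.23). Hsph1, the HSP110 that is itself a heat shock gene, read 4292, 3464, 4412, 3353 and 4650.2 in control and 5245, 6071, 4612, 5869 and 6150.5 in GeO2, with 1 of 25 pairs overlapping. It rose by 0.47 log2 units (SE 0.13, adjusted p 0.0247). That call was lost without GeO2 replicate 2, 4 or 5 or without control replicate 2 or 4, with an adjusted p of up to 0.0661.

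The remaining HSP70 genes did not move one way. Hspa13, a microsomal HSP70 listed as Stch, rose by 0.66 log2 units (SE 0.17, adjusted p 0.0208) and by 0.80 log2 units (SE 0.20) at its dimmer probe set; the call at the brighter probe set was lost without GeO2 replicate 4 or 5 or control replicate 2 (adjusted p up to 0.0578). Hspa14, an HSP70 relative bound to ribosomes, was 4944, 4547, 4275, 4737 and 5104 in control and 3294, 3288, 3422, 3323 and 3615 in GeO2, with no overlap, and fell by 0.47 log2 units (SE 0.10, adjusted p 0.0062). Hspa8 encodes the constitutive cytosolic HSP70. The single Hspa8 probe set in the table was dim, with 792, 2059, 1229.6, 2086 and 1322 units in control and 561, 600.0, 848, 893 and 1062 in GeO2, and fell by 0.86 log2 units (SE 0.26, adjusted p 0.0415). The groups overlapped in 3 of 25 pairs, and leaving out any array but GeO2 replicate 5 or control replicate 1 ended the call (highest adjusted p 0.0999). Other probe sets of Hspa8, outside the table, were not analysed here. Hspa5, the ER HSP70 also called BiP or GRP78, did not pass at 0.28 log2 units (SE 0.11, adjusted p 0.0973). It read 9473, 9329, 10301, 10564 and 10399.5 in control and 11626, 11484, 9959, 13474 and 14769 in GeO2, where 4 arrays stood above all control arrays and replicate 3 did not. Hspa4l, a further HSP110, did not pass at its brighter probe set (−0.28 log2 units, SE 0.09, adjusted p 0.0561), and its dimmer probe set fell by 0.41 log2 units (SE 0.12, adjusted p 0.0299). All GeO2 arrays stood below all control arrays at both probe sets, and leaving out any of 6 arrays ended the call at the dimmer one.

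Both cytosolic HSP90 genes fell, and of 7 genes in the group of HSP90 and its cochaperones 1 rose and 4 fell. Hsp90aa1, the stress-inducible form, listed as Hspca, read 27608, 28362, 27529, 18735 and 23089.9 units in control and 15744, 15617, 15809, 15456 and 11991 in GeO2. All GeO2 arrays were below all control arrays, and GeO2 replicate 5 lay below the other GeO2 arrays, which were close to each other. Hsp90aa1 fell 1.67-fold, from 25065 ± 4104 in control to 14924 ± 1645 in GeO2 (mean signal ± SD, n = 5). Its log2 change was −0.74 (SE 0.12, adjusted p 0.00276). Hsp90ab1, the constitutive form, listed as Hspcb, read 16187, 20595, 19618, 11061 and 13560.5 in control and 8921, 10155, 11665, 10211 and 8814 in GeO2. The groups overlapped in 1 of 25 pairs, GeO2 replicate 3 above control replicate 4. Hsp90ab1 fell 1.59-fold, a log2 change of −0.67 (SE 0.16, adjusted p 0.0132). Both calls held whichever array was left out. Trap1, the HSP90 of mitochondria, fell by 0.57 log2 units (SE 0.15, adjusted p 0.0252), a call lost without GeO2 replicate 4 or control replicate 1, 2, 4 or 5 (adjusted p up to 0.0608). Its dimmer probe set did not pass (−0.60 log2 units, SE 0.19, adjusted p 0.0501).

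Among the cochaperones in the 69 genes, Fkbp5 was the single rise. Fkbp5 encodes FKBP51, which binds HSP90 in steroid receptor complexes and whose gene is a known target of glucocorticoid receptor. It read 2641, 3648, 3805, 3154 and 2734 in control and 5101, 4264, 6208, 4502 and 4661 in GeO2, with no overlap, and rose 1.55-fold, a log2 change of 0.63 (SE 0.14, adjusted p 0.0103). Its dimmer probe set rose by 1.02 log2 units (SE 0.20, adjusted p 0.0056), again with no overlap. Tomm34, a cochaperone of HSP70 and HSP90 in mitochondrial import, fell by 0.43 log2 units (SE 0.10, adjusted p 0.0141). Ahsa1, the activator of the HSP90 ATPase, and Sgta, a cochaperone of tail-anchored proteins, did not pass at −0.28 log2 units (SE 0.10) and −0.39 log2 units (SE 0.14). The wider list of HSP90 genes and cochaperones has 22 names, of which 10 were measured. Of these, 4 rose and 3 fell, and the median change was −0.02 log2 units. These counts too are few and stand beside shares of 31.2% and 28.5% in the authors' table. The other rises, outside the 69 genes, were Cdc37l1 at 0.54 log2 units (SE 0.12, adjusted p 0.0103), Aarsd1 at 0.80 (SE 0.11, adjusted p 0.00134) and Rpap3 at 0.37 (SE 0.12, adjusted p 0.0497), the last lost when any of 8 arrays was left out.

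**Figure D2:**
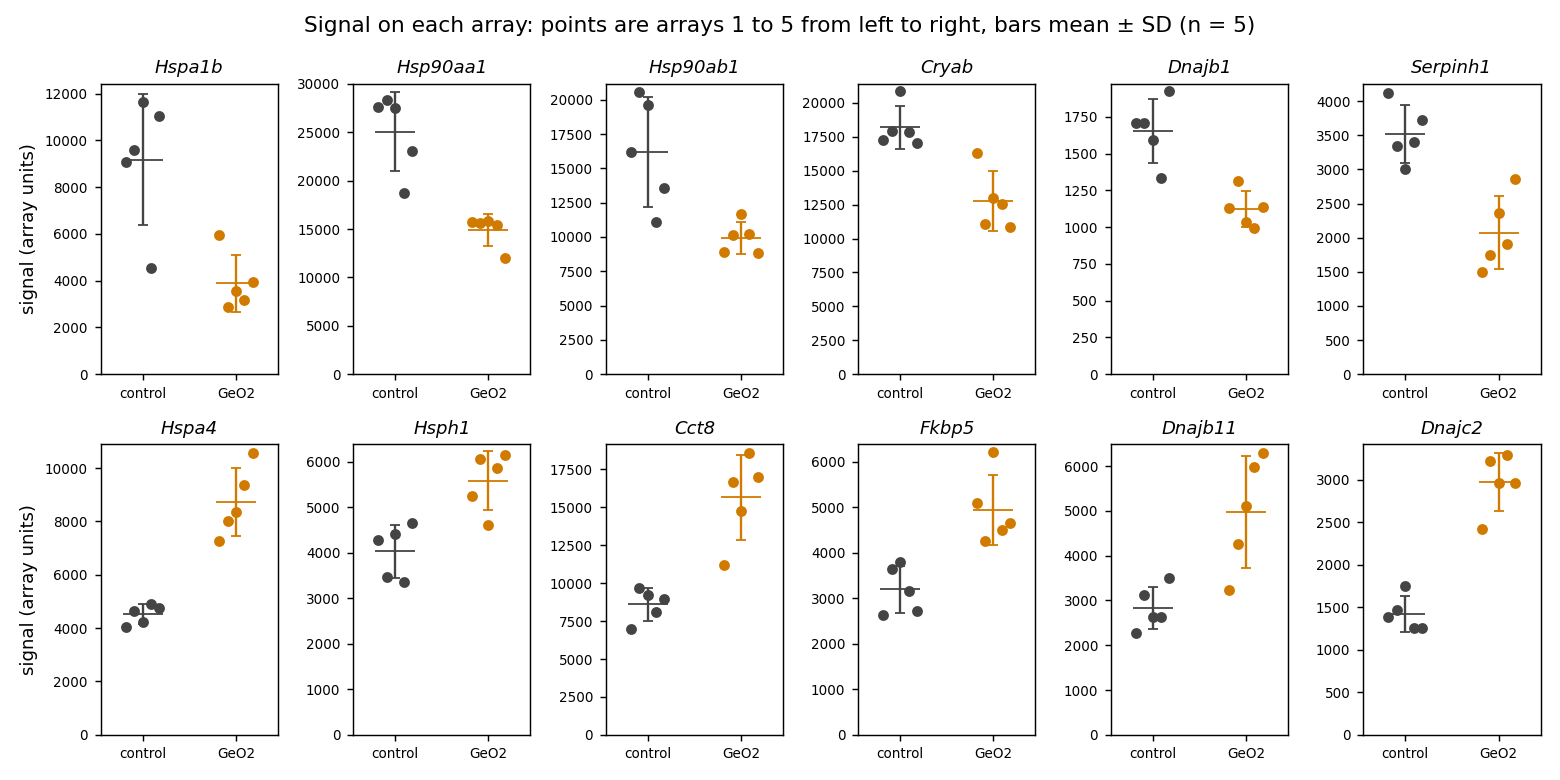
Signal of 12 chaperone genes on each array, in array units on axes that start at 0, with the mean and SD of each group (n = 5). Arrays of GeO2 lie below control for Hspa1b, Hsp90aa1, Hsp90ab1, Cryab, Dnajb1 and Serpinh1, with 1 overlapping pair of arrays for Hspa1b and for Hsp90ab1, and above control for Hspa4, Hsph1, Cct8, Fkbp5, Dnajb11 and Dnajc2, with 1 overlapping pair for Hsph1 and for Dnajb11.

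Cryab was the 1 small heat shock protein gene measured of 10 listed. It encodes alpha-B crystallin, a holdase that keeps unfolding proteins from aggregating, abundant in lens and muscle. Its brighter probe set read 17239, 17898, 20906, 17886 and 17054 units in control and 16338, 11104, 12991, 12571 and 10879 in GeO2. The other read 16904, 19948, 18784, 14349 and 15128 in control and 8841, 8504, 8639, 8982 and 7946 in GeO2. Neither probe set overlapped between groups. Cryab fell 1.44-fold at the brighter probe set, with a log2 change of −0.52 (SE 0.11, adjusted p 0.00898), and 1.97-fold at the other, with a log2 change of −0.98 (SE 0.10, adjusted p 0.000494). Of 25 muscle markers listed, 4 were measured, and 3 of these fell while 1 rose; their part in the fall of Cryab was not tested.

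J proteins, which start the ATP cycle of HSP70, split by member: of 19 measured, 7 rose and 4 fell. Dnajb1, the main heat-inducible J protein of the cytosol, read 1708, 1709, 1589.7, 1333 and 1929.8 in control and 1130.3, 1312, 1036, 994 and 1134 in GeO2, and fell by 0.55 log2 units (SE 0.13, adjusted p 0.0147) with no overlap. Dnaja2, a constitutive cytosolic J protein, fell by 0.50 log2 units (SE 0.15). Dnajc5, the cysteine string protein of synaptic vesicles, fell by 0.28 log2 units (SE 0.09). Leaving out any of 8 arrays ended either call (highest adjusted p 0.0783 and 0.107). Dnajc2, known as MPP11 or zuotin, works with Hspa14 on ribosomes. It read 1382, 1469, 1757, 1252 and 1258 in control and 2422, 3221, 2963, 3288 and 2969 in GeO2, with no overlap, and rose 2.08-fold, a log2 change of 1.06 (SE 0.13, adjusted p 0.000733). The ribosome-bound partners Dnajc2 and Hspa14 thus moved in opposite directions, both whichever array was left out.

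Dnajb11, also called ERdj3, binds nascent chains in the ER with BiP. It read 2267, 3118, 2639, 2636 and 3493 in control and 3242, 4264, 5104, 5971 and 6284 in GeO2, with 1 overlapping pair of arrays, GeO2 replicate 1 below control replicate 5. It rose 1.72-fold, a log2 change of 0.79 (SE 0.18, adjusted p 0.0121). Dnajb6, a suppressor of aggregation, rose by 0.60 log2 units (SE 0.14, adjusted p 0.0117), and its GeO2 replicate 5, at 1229 units, stood apart from the others at 1616 to 1784. Dnajc24, listed as 1700030A21Rik, serves diphthamide synthesis and rose by 0.52 log2 units (SE 0.12) and, at its other probe set, by 0.98 log2 units (SE 0.15). Dnajc18, listed as 2700075B01Rik, rose by 0.53 log2 units (SE 0.14). Dnajc8, a J protein linked to splicing, rose by 0.40 log2 units (SE 0.11), and Dnajb4, a cytosolic relative of Dnajb1, by 0.48 log2 units (SE 0.15). The call of Dnajc18 was lost without GeO2 replicate 4 (adjusted p 0.0524), and those of Dnajc8 and Dnajb4 without any of 5 and 7 arrays (up to 0.0643 and 0.109).

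Dnajb13 showed the lowest change of the J proteins. It is known as a J protein of the axoneme of cilia and flagella and was listed as 1700014P03Rik. It read 3418, 2634, 1694, 2343 and 2573 in control and 1269, 1302, 658, 593 and 698 in GeO2, and fell 2.86-fold, a log2 change of −1.52 (SE 0.25, adjusted p 0.00248). Its other probe set in the table fell by 1.14 log2 units (SE 0.28). With the erythroid marker score added to the fit, the change of Dnajb13 was −0.39 log2 units (SE 0.34). That score did not overlap between the groups, so the fit can hardly tell it from the group. The 8 J proteins that did not pass lay between −0.34 for Dnaja4 and 0.80 for Dnajc1, and included Dnaja1, the partner of cytosolic HSP70 in protein import, at 0.24 log2 units (SE 0.10, adjusted p 0.119), and the ER genes Dnajb9, Dnajc3 and Sec63.

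The list of heat shock transcription and HSF1 targets, of 29 names, had 15 measured genes. Falls numbered 10 and rises 2, 3 genes did not pass, and the median log2 change was −0.55, against 0.26 over the 69 genes, 0.25 over the tested probe sets of the authors' table and −0.02 over all probe sets tested. Of that table, through which the list's genes were measured, 28.5% of tested probe sets fell and 31.2% rose, against 7.81% and 8.50% of all. The falls included those of Hspa1b, Hspa8, Hsp90aa1, Hsp90ab1, Dnajb1 and Cryab above, of Serpinh1 and Hsbp1, and of Hspe1, which is not among the 69 genes. Serpinh1 encodes HSP47, the collagen chaperone of the ER. It read 4128, 3341, 3009.5, 3402 and 3732 in control and 1502, 1739, 2360.3, 1904 and 2854 in GeO2, with no overlap, and fell 1.73-fold, a log2 change of −0.79 (SE 0.17, adjusted p 0.00798). Hsbp1, a small protein that binds HSF1, fell by 0.39 log2 units (SE 0.13, adjusted p 0.0495), a call that leaving out any of 9 arrays ended (highest adjusted p 0.108). The rises were those of Hsph1 and Dnajb4, and Dnaja1, Cct2 and Ahsa1 did not pass.

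Of the 10 falls in the HSF1 list, 7 passed whichever array was left out, among them Hspa1b, Hsp90aa1, Hsp90ab1, Cryab, Dnajb1 and Serpinh1. Neither rise did. Control replicate 4 was the lowest control array for Hspa1b (4537 units), Hsp90aa1 (18735), Hsp90ab1 (11061) and Dnajb1 (1333). It was not the lowest for Serpinh1 or for Cryab at its brighter probe set. Genes of the list may thus vary together between arrays, and their falls are not separate observations. The number of falls ran from 7 to 9 with 1 array left out. It was 8 after a shift of all arrays to 1 median, 5 under the pooled-variance test and 0 with the erythroid score in the fit, where no gene of the list turned sign and its median was −0.81. Hsf1 itself, Bag3, Hspb1 and Hspd1 are in the list but were not analysed here. The list counts what was named in a table selected on these arrays, so the share of the heat shock response as a whole that fell is not given by it.

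**Figure D3:**
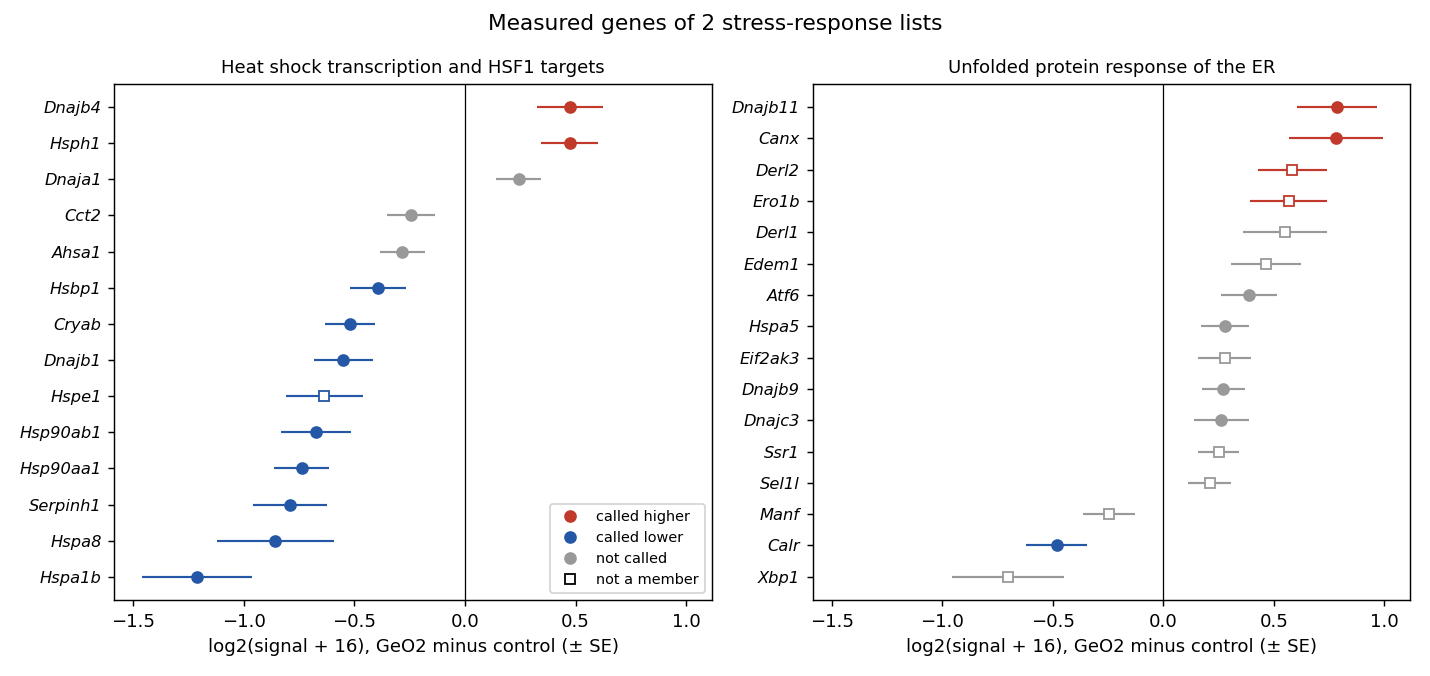
Change of measured genes of the HSF1 list (left, 14 of its 15) and of the ER unfolded protein response list (right, 16 genes) on the log2(signal + 16) scale with standard errors. Red rose, blue fell, grey did not pass, and open squares are genes outside the 69. Of the genes drawn on the left 9 of 14 fell and on the right 4 of 16 rose.

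Promoter windows of 250 bases before to 50 after a transcript start, from RefSeq on build GRCm38.p6, were found for 55 of the 69 genes. Those with none included Atf6, Tor3a, Hspa13, Hspa8, Hsp90aa1, Hsp90ab1, Dnajc18, Dnajc2, Dnajc5, Cct4, Atad3a, Eraf and Cryab. The windows were searched on both strands for the heat shock element, an array of inverted GAA units, in a shorter form (TTCNNGAA or GAANNTTC) and in a longer form, which adds NN and a further TTC or GAA to the shorter one. The longer form was in 0.603% and the shorter in 15.1% of 32851 mouse windows. Among the 55 genes the longer form was found for Hsph1 and Dnajb6, and both rose. The shorter form was found for 4 of 19 genes that rose (Hsph1, Dnajb6, Dnajb4 and Cwc27), for 1 of 12 that fell (Hspa1b) and for 6 of 24 that did not pass. The windows of Hspa1b (chr17:34959189-34959488, minus strand), Hsph1 (chr5:149636266-149636565, minus strand) and Dnajb6 (chr5:29735648-29735947, plus strand) are shown because these genes share the motif and moved in different directions. Each is written 5′ to 3′ on the gene's strand with the matches in capitals.
Hspa1b: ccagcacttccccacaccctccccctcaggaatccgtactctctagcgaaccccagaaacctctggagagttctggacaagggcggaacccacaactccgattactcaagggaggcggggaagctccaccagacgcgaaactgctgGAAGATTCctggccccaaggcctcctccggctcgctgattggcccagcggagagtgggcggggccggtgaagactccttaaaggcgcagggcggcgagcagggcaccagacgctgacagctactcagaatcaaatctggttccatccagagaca
Hsph1: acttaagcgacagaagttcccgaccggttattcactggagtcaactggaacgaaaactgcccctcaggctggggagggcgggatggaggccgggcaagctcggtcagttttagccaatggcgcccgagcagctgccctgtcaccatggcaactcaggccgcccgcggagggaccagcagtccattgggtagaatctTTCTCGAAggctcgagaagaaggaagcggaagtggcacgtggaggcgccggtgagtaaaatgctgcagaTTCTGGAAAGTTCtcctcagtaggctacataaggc
Dnajb6: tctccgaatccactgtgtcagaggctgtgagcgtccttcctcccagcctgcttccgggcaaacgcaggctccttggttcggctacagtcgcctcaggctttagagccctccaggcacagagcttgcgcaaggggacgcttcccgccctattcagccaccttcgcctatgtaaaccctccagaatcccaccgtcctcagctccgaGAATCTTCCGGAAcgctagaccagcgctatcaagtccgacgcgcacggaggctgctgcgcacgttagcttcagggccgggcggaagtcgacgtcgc
In Hspa1b the match (GAAGATTC) began 104 bases before the start. In Hsph1 the longer match (TTCTGGAAAGTTC) began 15 bases after the start and a shorter one (TTCTCGAA) 54 bases before it. In Dnajb6 the match (GAATCTTCCGGAA) began 46 bases before the start. A match is a description of these letters and not evidence of binding, and a gene with no match in this window may hold the motif elsewhere.

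In the CCT chaperonin, which folds actin and tubulin in a ring of paralogous subunits, 1 of the 5 subunits measured rose at its brightest probe set and 1 fell. Cct8 read 6948, 9678, 9240.5, 8126 and 8978 in control and 11221, 16695, 14771, 18567 and 17014 in GeO2. All GeO2 arrays stood above all control arrays, and Cct8 rose 1.81-fold, a log2 change of 0.85 (SE 0.14, adjusted p 0.00245). Cct4 was dim, with 1118, 870.4, 1003, 865 and 1044 in control and 706, 830.5, 570.4, 764 and 700.5 in GeO2, and fell by 0.45 log2 units (SE 0.14, adjusted p 0.0453); leaving out any of 8 arrays ended the call (highest adjusted p 0.113). Cct2, Cct3 and Cct7 did not pass, with changes of −0.25 log2 units (SE 0.11), 0.55 log2 units (SE 0.19) and 0.21 log2 units (SE 0.09). The other probe set of Cct7, also bright, rose by 0.45 log2 units (SE 0.12, adjusted p 0.0246). The signals of subunits were read by different probes, so their levels are not set against each other.

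Prefoldin hands unfolded actin and tubulin to CCT. Uri1, a prefoldin-like protein listed as C80913, rose by 0.51 log2 units (SE 0.13, adjusted p 0.0178) with no overlap. The prefoldin subunits Vbp1 and Pfdn4 did not pass at 0.18 log2 units (SE 0.09) and −0.46 log2 units (SE 0.17). Mkks and Bbs10, chaperonin-like proteins that assemble the BBSome of cilia, did not pass either, at −0.51 log2 units (SE 0.20) and −0.33 log2 units (SE 0.13). Tbca, which holds beta-tubulin after CCT, fell by 0.59 log2 units (SE 0.17, adjusted p 0.0361). Its GeO2 arrays read 7272, 13622, 16134, 11524 and 11116 against 18461, 16506, 20796, 16019 and 15562 in control, with 2 overlapping pairs, and the call was lost without GeO2 replicate 4 or 5 or control replicate 1, 2 or 3 (adjusted p up to 0.083).

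Of the 16 genes of the ER among the 69, counted across all roles, 5 rose (Hspa13, Dnajb11, Canx, Erp44 and Ero1a), 2 fell (Serpinh1 and Calr) and 9 did not pass, and the 16 had a median change of 0.37 log2 units. The share that rose is near the 31.2% of the authors' table, and nothing is read from it. With 1 array left out the rises numbered 3 (without GeO2 replicate 4 or 5) to 9 (without GeO2 replicate 3), and with array weights 12. The pooled-variance test gave 1 rise, and the fit with the erythroid score gave 0. Canx encodes calnexin, the membrane lectin chaperone of glycoproteins, and Calr encodes calreticulin, its soluble relative. Canx read 1679, 1514, 1514, 2828 and 2512 in control and 2181, 3995, 3575, 3752 and 3584 in GeO2, where replicate 1 was the lowest and 4 arrays exceeded every control array. Canx rose 1.72-fold, a log2 change of 0.78 (SE 0.21, adjusted p 0.0252). Calr read 14413, 21272, 15422, 11495 and 14714 in control and 12067, 10025, 11162, 9823 and 11363 in GeO2, with 1 overlapping pair, and fell 1.4-fold, a log2 change of −0.48 (SE 0.14, adjusted p 0.0312); its other probe set fell by 0.42 log2 units (SE 0.14, adjusted p 0.0485). Both calls depended on single arrays: that of Canx was lost without GeO2 replicate 2, 4 or 5 or control replicate 1, 2 or 3 (adjusted p up to 0.0654), and that of Calr without any array but GeO2 replicates 1 and 3 and control replicate 4 (up to 0.0715).

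Among the 69 genes, Ero1a and Erp44, which have to do with disulfide bond formation in the ER, rose. Ero1a, the oxidase that recharges protein disulfide isomerase, was listed as Ero1l. It read 1129, 1322, 1075, 1271 and 1222 in control and 1816, 1569.6, 1815, 1617 and 2147 in GeO2, and rose 1.48-fold, a log2 change of 0.56 (SE 0.12, adjusted p 0.00977), and by 0.59 log2 units (SE 0.12) at the dimmer probe set. Erp44, the chaperone that retains Ero1 proteins in the ER and was listed as Txndc4, read 2676, 3050.5, 2441, 3587 and 2989.9 in control and 4213, 3900.2, 3682, 4681 and 5748 in GeO2, and rose 1.5-fold, a log2 change of 0.58 (SE 0.14, adjusted p 0.0166). Neither gene overlapped between groups at its brightest probe set. Erp44 did not pass at its dimmer probe set (0.48 log2 units, SE 0.17, adjusted p 0.0659). In the wider list of disulfide isomerases and oxidases, 5 of 21 names were measured, and 3 rose, which were Ero1a, Erp44 and Ero1b. The isomerase gene P4hb (0.20 log2 units, SE 0.09, adjusted p 0.142) and the oxidase gene Qsox1 (−0.45 log2 units, SE 0.20, adjusted p 0.147) did not pass.

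The list of the ER unfolded protein response, of 35 names, had 16 measured genes, of which 4 rose, 1 fell and 11 did not pass. The median change of the list was 0.28 log2 units, against 0.25 over the tested probe sets of the authors' table, of which 31.2% rose and 28.5% fell. The rises were those of Dnajb11 and Canx and, outside the 69 genes, of Derl2 at 0.58 log2 units (SE 0.16) and Ero1b at 0.57 log2 units (SE 0.17). Calr fell. Among those that did not pass were the sensor gene Atf6 (0.39 log2 units, SE 0.13, adjusted p 0.0552), its target Hspa5, and Xbp1 (−0.70 log2 units, SE 0.25, adjusted p 0.0774). The number of rises was 1 without GeO2 replicate 4 or control replicate 1 and 7 without GeO2 replicate 3. With array weights it was 10, and with the pooled-variance test or the erythroid score 0. Dnajb11 was the 1 rise that passed whichever array was left out.

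The ER stress element, CCAAT and CCACG with 9 bases between them, on either strand, is bound by NF-Y and ATF6. It was in 0.119% of the 32851 windows. It was found for Canx, which rose, for Calr, which fell, and for Hspa5 and Dnajc3, which did not pass. The windows of Canx (chr11:50325624-50325923, minus strand) and Calr (chr8:84846882-84847181, minus strand) are shown because these lectin chaperones carry the same element and moved in opposite directions.
Canx: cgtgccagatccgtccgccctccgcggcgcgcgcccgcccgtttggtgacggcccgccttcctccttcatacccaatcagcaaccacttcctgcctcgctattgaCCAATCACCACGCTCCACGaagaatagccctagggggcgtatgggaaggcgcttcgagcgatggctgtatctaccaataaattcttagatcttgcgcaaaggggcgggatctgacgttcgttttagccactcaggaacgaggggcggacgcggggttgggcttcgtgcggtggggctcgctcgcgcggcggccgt
Calr: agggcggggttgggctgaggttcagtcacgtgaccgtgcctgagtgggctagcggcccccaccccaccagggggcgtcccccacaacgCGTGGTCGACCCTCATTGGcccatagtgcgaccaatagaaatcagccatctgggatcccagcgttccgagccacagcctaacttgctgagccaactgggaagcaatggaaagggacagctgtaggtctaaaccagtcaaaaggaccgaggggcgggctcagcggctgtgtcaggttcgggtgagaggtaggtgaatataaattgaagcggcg
The match in Canx began 145 bases before the start and that in Calr, on the other strand (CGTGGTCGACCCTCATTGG), 162 bases before it. The motif TGACGTGG was found in none of the 55 genes' windows and TGATGNAA in that of Hspa14, against 0.676% and 3.97% of all windows.

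Peptidyl-prolyl isomerases speed the rotation of proline bonds. Of 8 measured genes in this role, 4 rose and none fell, and all 4 rises passed whichever array was left out. Of the tested probe sets of the authors' table, 31.2% rose, 28.5% fell and 33.3% passed whichever array was left out. The genes are few and came from that table, so nothing is read from their count. Fkbp1a, the FKBP12 that binds FK506 and steadies ryanodine receptors, read 8985, 9734, 11651, 8630.3 and 10090.5 in control and 13686, 15085, 14594, 15802 and 14753 in GeO2. Its groups did not overlap, and it rose 1.51-fold, a log2 change of 0.60 (SE 0.10, adjusted p 0.00232). Cwc27, a cyclophilin-type protein of the spliceosome listed as Sdccag10, read 1013, 1028, 1021, 1031 and 1049 in control and 1448, 1739, 1690.5, 1659 and 1676 in GeO2. The control arrays were close to each other and all GeO2 arrays stood above them, and Cwc27 rose 1.59-fold, a log2 change of 0.66 (SE 0.11, adjusted p 0.00246). Ppwd1, a nuclear cyclophilin listed as 4632422M10Rik, rose by 0.79 log2 units (SE 0.18, adjusted p 0.0109), and Nktr, a large nuclear cyclophilin with an SR-like domain, by 0.46 log2 units (SE 0.11, adjusted p 0.0158). At its dimmer probe set Nktr did not pass (0.55 log2 units, SE 0.21, adjusted p 0.0891). The probe set shared by Ppid and Lamp3 rose by 0.51 log2 units (SE 0.14) and is given to neither gene.

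The other isomerases did not pass, among them Fkbp9, of the ER, at 0.34 log2 units (SE 0.11), and the spliceosomal cyclophilins Ppil1 and Ppih at −0.37 log2 units (SE 0.12) and −0.40 log2 units (SE 0.16). Among cyclophilins of the spliceosome or nucleus, Cwc27, Ppwd1 and Nktr were thus higher while Ppil1 and Ppih had values below 0 that did not pass. The wider isomerase list has 37 names, of which 10 were measured. Of these, 6 rose and none fell, with a median of 0.52 log2 units. Over the tested probe sets of the authors' table the median was 0.25, and 31.2% rose and 28.5% fell. Falls appeared among the 10 in some fits: 2 without GeO2 replicate 1 and with array weights, and 1 without control replicate 1 or 3.

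Of the genes with narrower substrates, Eraf showed the lowest change of all 69. Eraf, now called Ahsp, encodes the chaperone of free alpha-haemoglobin in red cell precursors. It read 29396, 39404, 18624, 34937 and 34292 in control and 7100.0, 12519, 2177, 3565 and 3306 in GeO2. No GeO2 array reached a control array, and Eraf fell 6.45-fold, a log2 change of −2.69 (SE 0.38, adjusted p 0.00141). Eraf is itself one of the 21 measured erythroid markers, of which 20 fell. With the score of those markers in the fit, its change was −0.44 log2 units (SE 0.24). The score holds Eraf itself and did not overlap between the groups, so nothing is read from this value.

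Atox1, the copper chaperone that passes copper to the ATPases Atp7a and Atp7b, read 10454, 10221, 7533, 7837 and 7586 in control and 4102, 3469.7, 6051, 3308 and 4309 in GeO2. Its groups did not overlap at either probe set, and it fell 2.08-fold, a log2 change of −1.05 (SE 0.17, adjusted p 0.00222), and its dimmer probe set fell by 0.90 log2 units (SE 0.12, adjusted p 0.000808). Clpx, the unfoldase of the mitochondrial ClpXP protease, rose by 0.51 log2 units (SE 0.12, adjusted p 0.0125) with no overlap. Slmap, a membrane protein of the sarcolemma that carries the folding term in the authors' table, rose by 0.38 log2 units (SE 0.09, adjusted p 0.0137). Npm3, Cdc26 and Atad3a did not pass, at 0.61 log2 units (SE 0.21), 0.40 log2 units (SE 0.18) and −0.25 log2 units (SE 0.11). Trap1 and Clpx, the mitochondrial members that passed, thus went in opposite directions, though leaving out any of 5 arrays ended the call of Trap1.

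**Figure D4:**
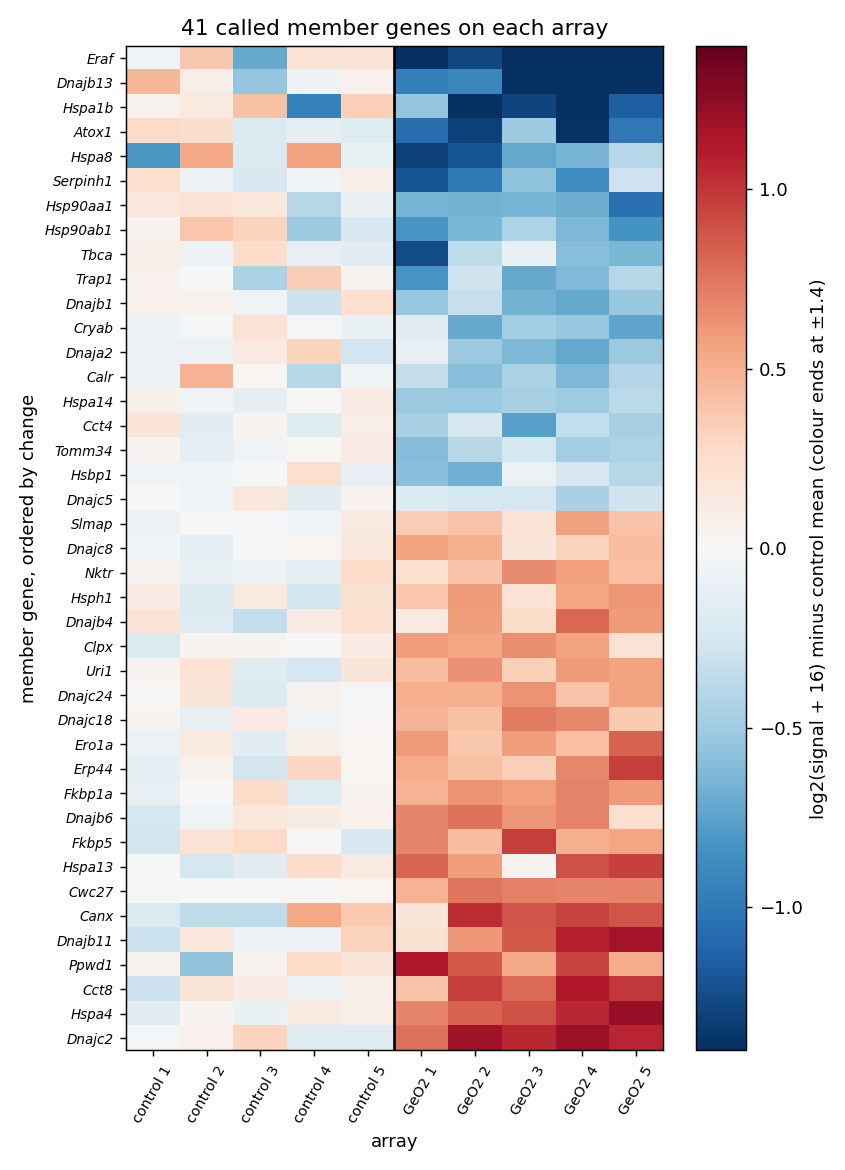
log2(signal + 16) of the 41 genes that passed, minus the mean of the 5 control arrays, on each array, with genes ordered by change from lowest (top) to highest. Eraf, Dnajb13 and Hspa1b reach the end of the colour scale on some arrays. Of the 41 genes, 27 had no overlap between the groups, 16 higher and 11 lower.

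Probe sets of a gene were compared for the 21 genes with more than 1 probe set in the table. In 4 of them the probe sets differed in sign. No gene had probe sets that passed in opposite directions. Dnaja4, a J protein of the cytosol, had a brighter probe set that did not pass and a dimmer one that rose. The brighter read 4103, 3297, 3261, 3679 and 4746 in control and 3518, 2978, 2823, 2571 and 3134 in GeO2 and did not pass (−0.34 log2 units, SE 0.13, adjusted p 0.101). The dimmer read 824, 623, 554, 814 and 966 in control and 1254, 1733, 1738, 1443 and 1729 in GeO2, with no overlap, and rose by 1.06 log2 units (SE 0.17, adjusted p 0.00231). The probe sets of Dnajc18 changed by 0.53 log2 units (SE 0.14) and −0.42 log2 units (SE 0.19), of which the former passed. Those of Slmap changed by 0.38 log2 units (SE 0.09) and −0.31 log2 units (SE 0.15), of which again the brighter passed. The probe set of Dnajc2 left out as dim was lower in GeO2, at 154, 179, 153, 162 and 157 units against 259.5, 269, 314, 207 and 177, while the brighter one rose. Which transcript each probe set reads was not analysed here.

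**Figure D5:**
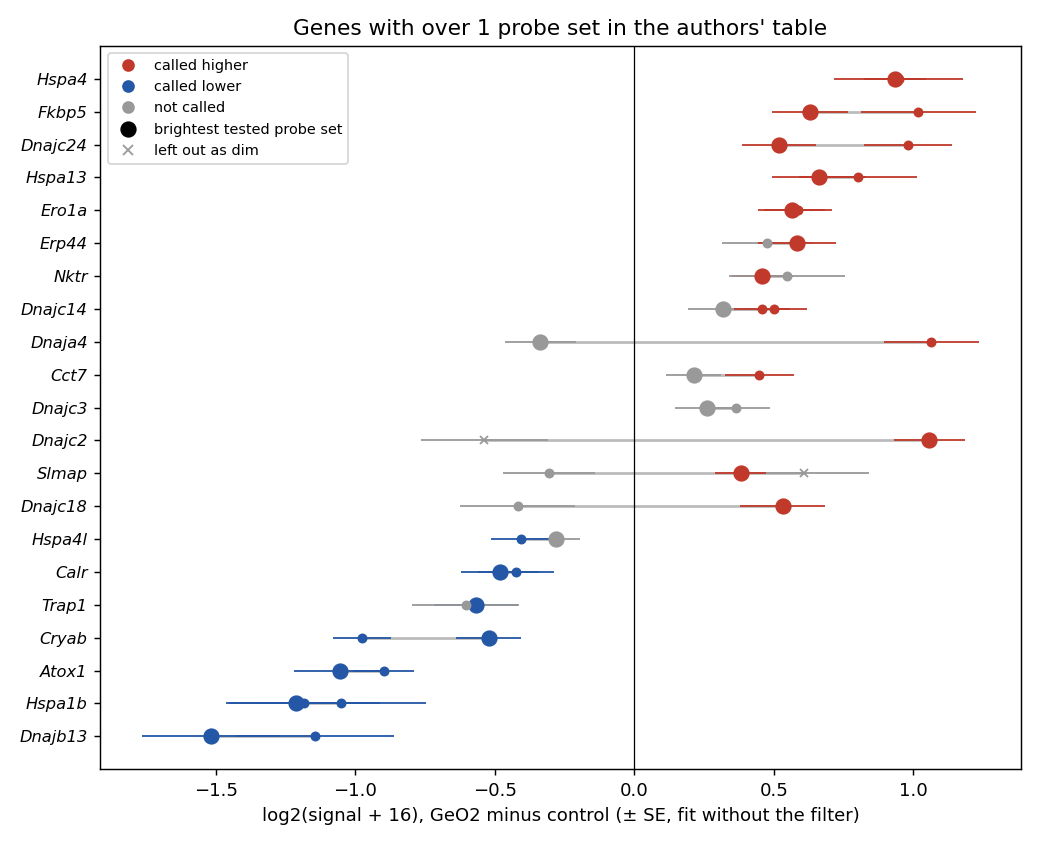
Change of each probe set of the 21 genes with more than 1 probe set, in a fit without the filter on dim probe sets, with standard errors; large points are the brightest tested probe set, crosses were left out as dim, red rose, blue fell and grey did not pass in the fit with the filter. Dnaja4, Dnajc2, Dnajc18 and Slmap lie on both sides of 0.

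The blood cell markers differed between the same groups of arrays as the falls and the rises. The erythroid score ran from 9.10 to 11.46 in GeO2 and from 11.55 to 12.80 in control, without overlap. Its markers also came from the table selected on this contrast. A fit that holds the score can hardly tell it from the group, so nothing is read from calls lost there. With the mean log2 signal of the erythroid markers as a covariate, none of the 27022 probe sets passed in limma (3242 at an unadjusted p under 0.05, among them 41 of the 92 probe sets described here), and the median standard error over all probe sets rose from 0.17 to 0.33. All 41 genes kept their sign in that fit. Hspa1b changed by −1.50 log2 units (SE 0.50) there, Hsp90aa1 by −0.82 log2 units (SE 0.25), Hspa4 by 0.85 log2 units (SE 0.24) and Dnajc2 by 0.84 log2 units (SE 0.26), while Trap1 moved from −0.57 to −0.10 log2 units (SE 0.28). The probe sets of Fkbp5 parted: the brighter moved from 0.63 to 0.17 log2 units (SE 0.25) and the dimmer from 1.02 to 1.37 log2 units (SE 0.39). The part of erythroid cells in these changes is not given by that fit. The part of the markers of the stria, spiral ligament, supporting cells, macrophages, dividing cells and muscle was not tested.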

How the data were processed

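The deposited value table holds intensities on a linear scale for each probe set and array; the submitters' processing notes name the Affymetrix program GCOS 1.3; genome build and scaling target are not given in the sources used here. Per the file header, the deposited table of significant genes lists 7806 probe sets with the authors' p-value and a fold change with a sign, held here as a score. It was used for symbols, Gene Ontology terms and the check of how it was selected. Old symbols were updated through mouse RefSeq genes (GRCm38.p6): 70 of 72 genes matched, of which 14 had been listed under an older name.

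limma 3.58.1 in R 4.3.3 was fitted (lmFit, eBayes with trend, two-sided) to log2(signal + 16) of 27022 probe sets on all 10 arrays, after the lowest 40% by mean (18015 probe sets) were left out, with Benjamini-Hochberg adjustment over all tested and a threshold of 0.05. The code was tested on simulated data. Each gene is given at the brightest tested probe set of the table. Alternatives were quantile normalization, a shift to 1 median, an offset of 1 or 64, a 60% filter or none, no trend, array weights, the replicate number as a block, each array left out, an erythroid marker score as covariate, the pooled-variance test on linear signal, and the mean of a gene's probe sets.

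The genes and the lists of roles, stress responses and cell markers were chosen with earlier results of these data known. The text gives in detail the 12 largest rises and falls, up to 6 genes of each role list and genes fixed in name; the others complete their role. A list gene counts as measured where the authors' table names it and it was tested. No coordinates beyond RefSeq promoter windows are given. Some genes that enter the counts and the fits are not reported here.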

Additional observations from a re-analysis of the deposited data

Results flagged for a closer look

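Signals of the 38 genes singled out by the rule were examined in each group of 5 arrays for 1 array far from the others, by the gap to the nearest array divided by the range of the group. Of 76 groups, 8 had a gap ratio above 0.71, and chance gives about 1 in 20 groups.

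In the GeO2 group, Hsp90aa1 was lowest on replicate 5 at 11991 units (gap ratio 0.918), Canx on replicate 1 at 2181 units (0.816) and Clpx on replicate 5 at 2245 units (0.787). Cwc27 was lowest on GeO2 replicate 1 at 1448 units (0.741) and Dnajb6 on GeO2 replicate 5 at 1229 units (0.733). In the control group, Cryab was highest on replicate 3 at 20906 units (0.763), Hspa1b lowest on replicate 4 at 4537 units (0.736) and Ppwd1 lowest on replicate 2 at 611 units (0.723). Of these 8 genes, Canx lost its call when an array was left out, and the other 7 kept theirs.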

How the results depend on the processing

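With the erythroid marker score in the fit, 0 probe sets passed, of all tested and of the 92 described, so 0 of 69 genes rose or fell in limma. The score did not overlap between the groups. That fit can hardly tell score from group, and nothing is read from its count. The pooled-variance test on linear signal was run without the filter on dim probe sets. It called 2235 of all 45037 probe sets, 32 of the 97 selected (19 higher, 13 lower) and 23 of the 72 genes (13 higher, 10 lower). A shift of all arrays to 1 median, which moved the median change of all probe sets by 0.05 log2 units, left 16 lower probe sets and 11 lower genes; the share of called genes that rose went from 53.7% to 67.6% and of probe sets from 55.2% to 67.3%, and no tested gene turned sign. With each array left out in turn, calls ran from 2794 (without GeO2 replicate 5) to 4854 over all probe sets, from 42 to 61 for the 92 (25 to 39 higher, 16 to 26 lower) and from 28 to 44 for genes (17 to 28 higher, 11 to 18 lower). Quantile normalization, other offsets, filters, no trend, array weights and the mean of probe sets moved none of these counts by over 1.5 times.

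Replicate numbers gave no clear sign of pairing. Deviations of same-numbered GeO2 and control arrays correlated at 0.17, −0.05, 0.10, 0.11 and 0.09, and those of differently numbered arrays at −0.30 to 0.23. These values do not exclude a weak pairing. With the replicate number as a block, 59 of the 92 probe sets passed (35 higher, 24 lower), 41 genes (24 higher, 17 lower) and 4431 of all.

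Of the 38 genes singled out, Cct2, Cct3, Cct7, Dnaja1 and Hspa5 had not passed. The other 33 all lost their call with the erythroid score, and 15 of them did under the pooled-variance test. None of the 38 turned sign in any alternative. The spread between 5 arrays limits these results: the smallest change called among the 69 genes was 0.28 log2 units, and the median standard error was 0.13.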
